A study of Homo sapiens with 6 samples.

Results

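Nuclear receptors are transcription factors whose activity is set by small lipophilic ligands, and coregulators are the proteins they recruit to switch genes on or off. The set described here holds 38 genes out of the 58219 gene identifiers counted, chosen by name: 30 receptors and 8 coregulators, grouped by the ligand class of the receptor. All 38 were found in the count files. RNA with a polyA tail was counted in SNU-449, an established human hepatocellular carcinoma line, as lines stably expressing either wild-type Yes (Yes WT, 3 libraries) or the gatekeeper mutant Yes T348I (3 libraries). Yes, the product of YES1, is a tyrosine kinase related to SRC. Every library in both groups came from cells given 100 nM dasatinib, a drug that blocks ABL and the SRC family, so all values are from treated cells. An untreated group was not analysed here. Set side by side are thus cells whose added kinase has an altered drug pocket and cells whose added kinase does not, both under the drug. The promoter that drives the introduced kinase, and whether each line is 1 clone or a pool, are not given in the sources used here. Separate cultures for the 3 libraries of a group are not stated in the labels. All p-values therefore measure the spread among these libraries alone, and that spread may be technical.

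Most receptors of this family bind DNA as dimers, and those for thyroid hormone, vitamin D, retinoic acid, fatty acids, oxysterols and bile acids pair with a retinoid X receptor. Without ligand many of them hold corepressors such as NCOR1, and ligand exchanges these for coactivators of the p160 family (NCOA1, NCOA2 and NCOA3). In liver the family is known for the control of bile acid, drug, lipid and glucose metabolism. SNU-449 had little of the hepatocyte programme in which these receptors are usually studied. Of 14 hepatocyte marker genes 11 had too few counts to be tested, ALB reached at most 10 counts in any library, and the summed level of all 14 was 6.02 to 7.02 CPM in the Yes WT libraries and 2.74 to 4.72 CPM in Yes T348I. CPM are counts scaled to a common library total with TMM factors. HNF4A, the receptor that marks hepatocyte identity, had at most 5 counts.

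Gene counts per library totalled 14360137 to 19608763. The libraries parted by group, with correlations of log2 CPM (across genes) of 0.995 to 0.996 within groups and 0.982 to 0.985 between them. YES1 itself stood at 364 ± 6.17 CPM in the Yes WT libraries and 409 ± 26.2 CPM in Yes T348I (SD, n = 3 each). It was called higher in Yes T348I (log2 fold change 0.17, SE 0.04, edgeR adjusted p = 9.94e-05), with separate ranges. These counts do not separate the native gene from the introduced one or show the mutation. Of the 14723 genes tested, 55.3% differed between the groups with an adjusted p under 0.05, 28.0% higher and 27.3% lower in Yes T348I. These shares are the background against which each count of members is set. Log2 ratios below are fitted log2 fold changes, Yes T348I over Yes WT, and their standard errors (SE) and adjusted p-values come from edgeR's quasi-likelihood test with Benjamini-Hochberg adjustment over all genes tested.

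Receptors and coregulators were more often lower than higher in Yes T348I. Of the 38 members 31 had enough counts to be tested. Lower levels in Yes T348I were called for 17 of them (54.8%, against 27.3% of all tested genes) and higher levels for 3 (9.68%, against 28.0%), while 11 did not pass. The members were chosen with earlier results of these data known, so these shares describe the set and are no independent evidence. The median log2 fold change of the tested members was -0.26, beside -0.01 over all tested genes. The changes were modest. Their median size of 0.27 on the log2 scale lay near the 0.23 of all tested genes, and the widest, that of PPARA, was 1.81-fold, whereas 3.21% of all tested genes fell and 0.876% rose at least 2-fold. The 2 groups had separate ranges in 21 of the 31 (67.7%), against 59.5% of all tested genes. The summed level of all 38 members was 1856 to 1917 CPM in the Yes WT libraries and 1586 to 1630 CPM in Yes T348I. Against a minimum change of 1.2-fold rather than any change, 9 members were lower and 1 higher, and the calls of RARG, PPARG, THRA, NR2C1, NR2C2, NR5A2, NR6A1, NCOA1, NCOR1 and LCOR were lost. Each of these lines is a bulk culture, so fewer cells expressing a gene and less RNA per cell cannot be told apart.

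The 7 receptors too low to be tested came from 5 of the classes. RXRG and ESR1 had 0 counts in all 6 libraries, which allows up to 3 counts, or 0.154 to 0.212 CPM per library. These limits cover counting error only. NR1H4, the bile acid receptor FXR, had 1 count in 1 Yes WT library and 0 in the other 5. Both xenobiotic receptors were at the floor, with at most 1 count per library for NR1I2 (PXR) and at most 3 for NR1I3 (CAR). NR3C2, the mineralocorticoid receptor, had at most 2. NR0B2 (SHP), a receptor without a DNA-binding domain that FXR induces in liver, had 5, 5 and 2 counts in the Yes WT libraries and 0, 0 and 2 counts in those of Yes T348I. With 12 against 2 counts in all, it was too low to be tested. Thus the bile acid receptor FXR and the xenobiotic receptors PXR and CAR were too low to be tested at this depth. Of the 3 steroid receptors listed only the glucocorticoid receptor NR3C1 was well expressed.

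Levels of different genes can be compared only per length, as CPM per kilobase of exon. The length joins all annotated exons of a gene, and the expressed forms may be shorter. Orders and family shares per kilobase are therefore approximate. On that scale NCOA3 stood first in Yes WT, at 43.3, and close to NR2F2 in Yes T348I, at 30.3 (means of 3 libraries). NR2F2 was at 23.6 and 30.9, NRIP1 at 26.1 and 18.1, NR1H2 at 17.5 and 16.7, NR2F1 at 20.6 and 11.8, and NR3C1 at 16.3 and 15.6. For scale, the median tested gene stood at 4.73 over all libraries, and NCOA3 lay above 92.4% of the tested genes. At the low end among tested members stood RORA (0.0530 and 0.0441) and PPARGC1A (0.0698 and 0.0688), which encodes the coactivator PGC-1 alpha. Neighbours in this order were mostly not separated. Over all 38 members, untested ones included, in 31 of 37 neighbouring pairs the ranges over the 6 libraries touched. Steps without overlap came after NRIP1, NR2F6, ESRRA, NR2C2, NR1H3 and PPARA.

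**Figure D1:**
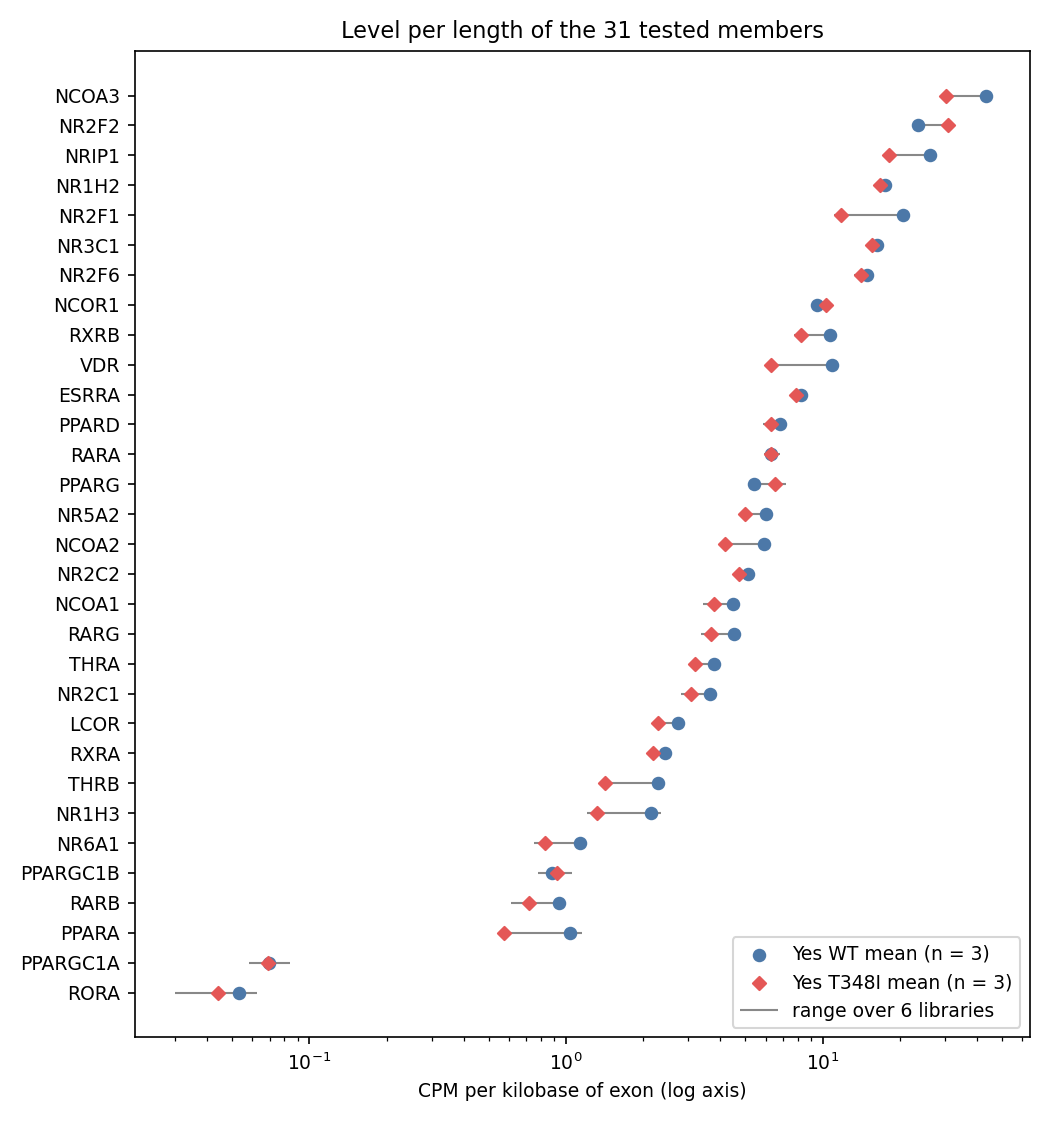
Level of the 31 tested members in CPM per kilobase of exon on a log axis, as the mean of each group (n = 3) and the range over 6 libraries. NCOA3, NR2F2 and NRIP1 are at the top and RORA and PPARGC1A lie apart from the rest at the bottom, under 0.1.

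The thyroid hormone and vitamin D receptors were lower in Yes T348I, all 3 of 3. VDR, the vitamin D receptor (ENSG00000111424.10, GRCh38 chromosome 12, 47841537 to 47943048), was at 63.2, 62.1 and 59.1 CPM in Yes WT replicates 1 to 3 and at 34.9, 36.5 and 35.6 CPM in Yes T348I. The groups lay far apart, a log2 ratio of -0.79 (SE 0.05, adjusted p = 5.43e-17). THRB, thyroid hormone receptor beta, the main form in liver (chromosome 3, 24117153 to 24495756), was at 24.8, 24.1 and 26.6 CPM against 14.9, 16.7 and 14.9 CPM. Each Yes T348I value was below the lowest Yes WT value, and the log2 ratio was -0.70 (SE 0.07, adjusted p = 8.25e-11). THRA, which encodes the alpha form, moved less, from 26.2, 27.1 and 25.6 to 22.5, 22.1 and 22.0 CPM (log2 ratio -0.24, SE 0.07, adjusted p = 0.0015). Per kilobase of exon THRB made up 37.7% ± 1.83 of the 2 thyroid hormone receptors in Yes WT and 30.7% ± 1.48 in Yes T348I (SD, n = 3 each). These shares did not overlap, and the exact permutation test gave p = 0.1, the smallest value that 3 against 3 libraries allow.

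Among the fatty acid receptors PPARA and PPARG went opposite ways. PPARA, the receptor that drives fatty acid oxidation in liver (chromosome 22, 46150521 to 46243756), was at 15.0, 10.9 and 15.2 CPM in the Yes WT libraries and 7.79, 7.68 and 7.26 CPM in Yes T348I. Yes WT replicate 2 was lower than the other Yes WT libraries but still above every Yes T348I library. The log2 ratio was -0.86 (SE 0.11, adjusted p = 8.29e-09). PPARG, the adipogenic member (chromosome 3, 12287368 to 12434356), was at 23.8, 25.8 and 23.6 CPM in the Yes WT libraries and rose to 29.1, 27.3 and 32.6 CPM, a log2 ratio of 0.28 (SE 0.07, adjusted p = 5.45e-04). PPARD, the broadly expressed member, was at 30.5 ± 0.505 and 28.0 ± 1.60 CPM (SD, n = 3 each). It did not pass with TMM scaling (log2 ratio -0.12, adjusted p = 0.084) and passed with upper quartile factors (-0.17, adjusted p = 0.022) and with library size only (-0.16, adjusted p = 0.026). The ratio of PPARG to PPARA counts was 1.59, 2.36 and 1.55 in the Yes WT libraries and 3.73, 3.55 and 4.49 in Yes T348I (exact permutation p = 0.1, the smallest possible). This separation follows from the separate ranges of the 2 genes and adds no evidence.

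Of the oxysterol receptors, LXR alpha fell and LXR beta did not pass. NR1H3, which encodes LXR alpha, the inducible regulator of cholesterol efflux and fatty acid synthesis (chromosome 11, 47248300 to 47269032), was at 8.74, 10.6 and 9.83 CPM in the Yes WT libraries and 6.05, 6.38 and 5.50 CPM in Yes T348I. No Yes T348I library reached the lowest Yes WT value, and the log2 ratio was -0.69 (SE 0.11, adjusted p = 1.80e-06). NR1H2, the ubiquitous LXR beta, was at 65.6 ± 1.17 and 62.7 ± 3.11 CPM (SD, n = 3 each; log2 ratio -0.06, SE 0.05, adjusted p = 0.27). Per kilobase LXR beta was the major form in every library, with 88.0% to 90.2% of the pair in Yes WT and 91.8% to 93.3% in Yes T348I.

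Of the 5 retinoid receptors tested, RXRB and RARG fell and the other 3 did not pass. RXRB, a shared dimer partner, was at 41.9, 42.5 and 41.9 CPM in the Yes WT libraries and 35.0, 31.1 and 30.5 CPM with Yes T348I (log2 ratio -0.38, SE 0.06, adjusted p = 4.42e-07). RARG, retinoic acid receptor gamma, was at 23.4, 21.7 and 24.3 CPM and 19.4, 17.2 and 19.9 CPM (log2 ratio -0.29, SE 0.07, adjusted p = 7.20e-04). In both genes the groups were separate. RARA, the alpha receptor, was at 29.9 ± 2.14 and 29.7 ± 1.51 CPM (SD, n = 3 each), log2 ratio -0.01 (SE 0.06, adjusted p = 0.95). RARB, itself a classical retinoic acid target, was low, at 3.36, 3.60 and 3.48 CPM in the Yes WT libraries and 2.92, 2.81 and 2.26 CPM in Yes T348I. Its groups did not overlap, but its log2 ratio of -0.37 (SE 0.17) had an adjusted p of 0.071. It passed with upper quartile factors (adjusted p = 0.045) and with library size only (adjusted p = 0.047). RXRA, the main retinoid X receptor of liver, was at 26.9 ± 1.65 and 24.2 ± 1.25 CPM (SD, n = 3 each; log2 ratio -0.15, edgeR adjusted p = 0.063). Its difference passed under the same 2 scalings (adjusted p = 0.018 and 0.023), without Yes T348I replicate 1 (0.032) and without Yes WT replicate 3 (0.044). Within the RAR family, per kilobase, RARA held 53.7% ± 1.14 in Yes WT and 58.9% ± 0.297 in Yes T348I (SD, n = 3 each), with no overlap.

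**Figure D2:**
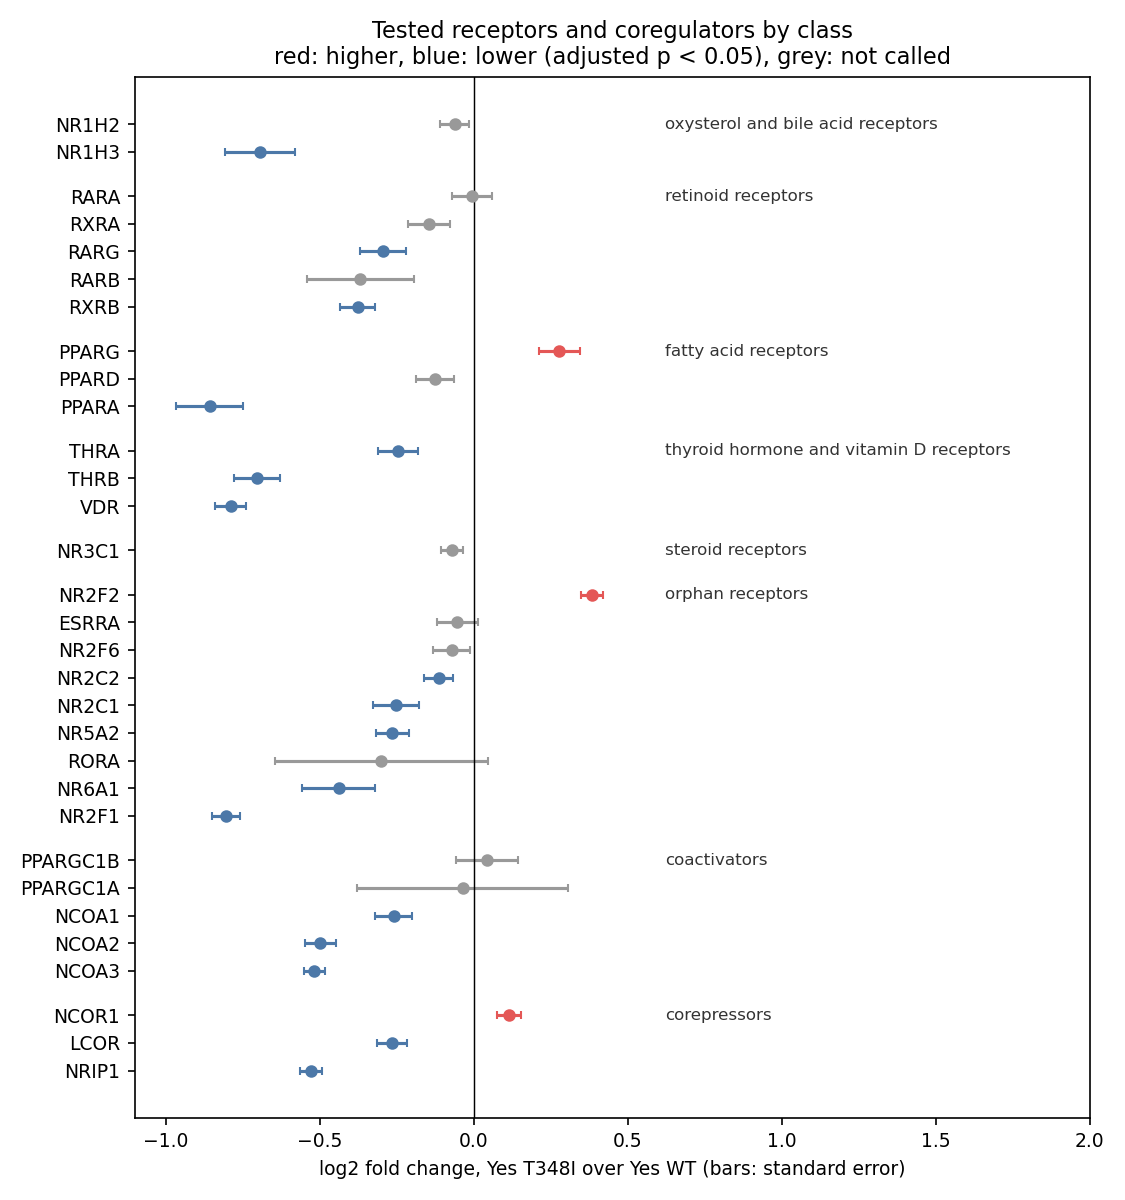
Log2 fold change of Yes T348I over Yes WT with its standard error for each of the 31 tested members, by class (red, higher; blue, lower; grey, not called). VDR, THRB, PPARA, NR1H3 and NR2F1 sit at -0.69 or below, and NR2F2, PPARG and NCOR1 are the 3 called higher.

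The glucocorticoid receptor NR3C1 was among the highest receptors and did not pass the test. It was at 144.7, 149.9 and 154.9 CPM in the Yes WT libraries and 141.7, 146.1 and 140.3 CPM in Yes T348I, overlapping ranges with a log2 ratio of -0.07 (SE 0.04, adjusted p = 0.10). With upper quartile factors and with library size only, the same small difference passed (-0.11 in both, adjusted p = 0.00897 and 0.013).

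The orphan receptors held the clearest pair of opposite changes, that of the COUP transcription factors. NR2F1 (COUP-TF1; ENSG00000175745.11, chromosome 5, 93583224 to 93594615) was at 89.5, 86.0 and 91.2 CPM in the Yes WT libraries and fell to 52.4, 47.9 and 52.1 CPM in Yes T348I. Its log2 ratio was -0.80 (SE 0.05, adjusted p = 1.19e-18), the lowest adjusted p of the set. NR2F2 (COUP-TF2; ENSG00000185551.14, chromosome 15, 96325938 to 96340263) was at 148.9, 157.7 and 151.2 CPM and rose to 191.9, 201.8 and 204.2 CPM, a log2 ratio of 0.38 (SE 0.04, adjusted p = 3.83e-12). Both factors bind the same kind of DNA repeat and mostly act in development, vessels and metabolism. The count ratio of NR2F2 to NR2F1 went from 1.66, 1.83 and 1.66 to 3.66, 4.21 and 3.92 (exact permutation p = 0.1, the smallest possible). Since NR2F2 alone was separate upward and NR2F1 alone separate downward, the ratio had to separate and adds no evidence. The more distant relative NR2F6 did not pass (39.9 ± 2.01 and 37.7 ± 3.40 CPM, SD, n = 3 each; log2 ratio -0.07, adjusted p = 0.32), although without Yes T348I replicate 1 it was lower with an adjusted p of 0.034. Per kilobase NR2F1 made up 34.8% ± 0.840 of the 3 genes in Yes WT and 20.8% ± 0.741 in Yes T348I, while NR2F2 went from 40.0% ± 1.51 to 54.4% ± 2.31 (SD, n = 3 each).

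Smaller falls were called for 4 other orphan receptors. NR5A2 (LRH-1), a regulator of bile acid and steroid synthesis, fell from 44.9, 44.1 and 47.2 to 37.9, 38.6 and 36.9 CPM (log2 ratio -0.26, SE 0.05, adjusted p = 4.76e-05). NR6A1 (GCNF), a repressor of pluripotency genes, was at 8.37, 7.61 and 8.29 CPM and 6.51, 5.35 and 5.92 CPM (log2 ratio -0.44, SE 0.12, adjusted p = 0.0016). In both the groups stayed apart. The testicular receptors NR2C1 and NR2C2 fell a little (log2 ratio -0.25, SE 0.07, adjusted p = 0.0035, for the first and -0.11, SE 0.05, adjusted p = 0.035, for the second). Both calls depended on the setting. NR2C1 no longer passed without Yes T348I replicate 1 (adjusted p = 0.063), and NR2C2 did not pass when each of the 6 libraries in turn was left out (adjusted p 0.051 to 0.15), with DESeq2 (0.12), with no low-count filter (0.24) or with unstranded counts (0.13). ESRRA, the estrogen-related receptor of mitochondrial genes, was at 24.9 ± 0.857 and 23.96 ± 1.09 CPM (SD, n = 3 each; adjusted p = 0.52). RORA had only 10 to 16 counts per library (log2 ratio -0.30, SE 0.35, adjusted p = 0.48), a depth at which a change of this size was not detectable.

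**Figure D3:**
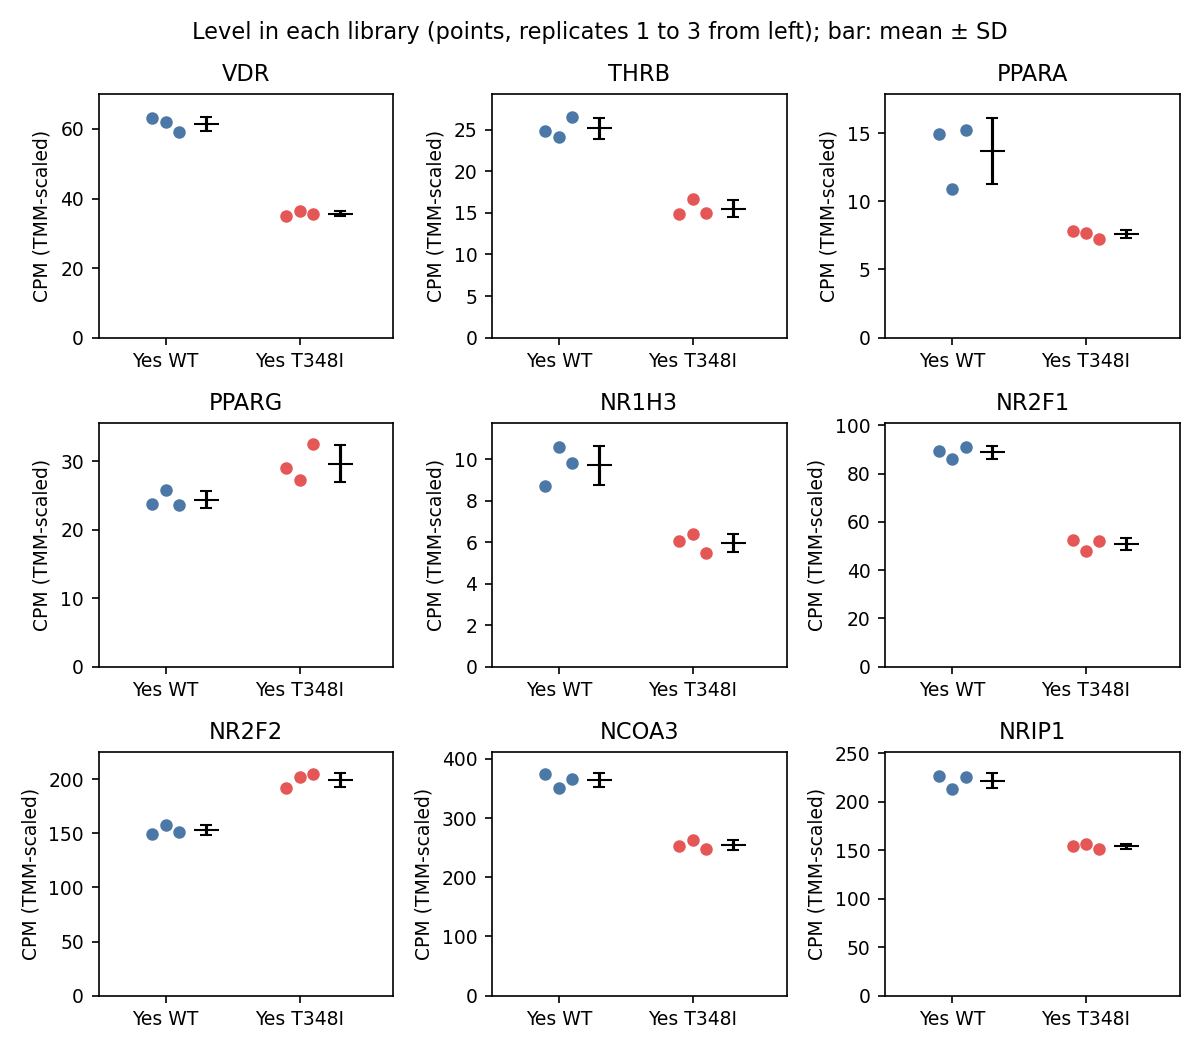
TMM-scaled CPM in each library (points, replicates 1 to 3 from left) with the mean and SD of each group (n = 3) for 9 members. The groups are separate in each panel, with NR2F2 and PPARG higher and the other 7 lower in Yes T348I.

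The p160 coactivators fell together. NCOA3 (SRC-3, AIB1; ENSG00000124151.18, chromosome 20, 47501902 to 47656877) was at 374, 351 and 367 CPM in the Yes WT libraries and 253, 263 and 247 CPM in Yes T348I, a log2 ratio of -0.52 (SE 0.03, adjusted p = 7.22e-17). NCOA2 (GRIP1, TIF2) was at 59.2, 58.8 and 59.2 CPM and 40.7, 43.6 and 41.5 CPM (log2 ratio -0.50, SE 0.05, adjusted p = 1.78e-11). NCOA1 (SRC-1) was at 39.5, 37.2 and 39.0 CPM and 29.5, 34.8 and 33.1 CPM (log2 ratio -0.26, SE 0.06, adjusted p = 3.26e-04). For each of the 3 genes every Yes T348I library lay below every Yes WT library. NCOA3 supplied most of this family per kilobase in both groups, 80.7% ± 0.251 in Yes WT and 79.2% ± 0.781 in Yes T348I (SD, n = 3 each). The PGC-1 coactivators, which couple receptors to mitochondrial genes, did not pass. PPARGC1B was at 11.4 ± 0.692 and 11.9 ± 1.801 CPM (SD, n = 3 each; adjusted p = 0.74), and PPARGC1A had 9 to 15 counts per library (adjusted p = 0.94).

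Corepressors split. NRIP1 (RIP140; ENSG00000180530.10, chromosome 21, 14961235 to 15065936), a ligand-dependent corepressor of metabolic genes, fell from 227, 213 and 226 to 154, 157 and 151 CPM, a log2 ratio of -0.53 (SE 0.04, adjusted p = 1.54e-16). LCOR, another corepressor that ligand recruits, fell from 75.5, 68.2 and 70.2 to 58.9, 62.3 and 57.0 CPM (log2 ratio -0.27, SE 0.05, adjusted p = 8.08e-06). Both had separate groups. NCOR1, the corepressor of unliganded receptors, rose slightly, from 154, 143 and 144 to 153, 169.6 and 155 CPM, with overlapping groups (log2 ratio 0.11, SE 0.04, adjusted p = 0.012). That call was lost with upper quartile factors (0.07, adjusted p = 0.11), with library size only (0.08, adjusted p = 0.097), and without Yes T348I replicate 2 (adjusted p = 0.11), Yes WT replicate 2 (0.075) or Yes WT replicate 3 (0.062). The summed counts of NCOA1, NCOA2 and NCOA3 over those of NCOR1 stood at 3.08, 3.14 and 3.22 in the Yes WT libraries and at 2.11, 2.01 and 2.07 in Yes T348I (exact permutation p = 0.1, the smallest possible). NCOR1 was the only corepressor member that did not fall, so this ratio does not stand for coactivators against corepressors as classes. The summed corepressor members were also lower, at 424 to 456 CPM in the Yes WT libraries and 363 to 389 CPM in Yes T348I.

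Promoter sequence was examined for the members, because their levels moved mostly one way. RefSeq (GRCh38.p14) gave 76 windows, of 250 bases before to 50 after a start, for 34 of the 38 members, often several starts per gene, and the gene counts do not say which start was used. Each window was searched on both strands for the nuclear receptor half-site AGGTCA, the TEAD motif GGAATG, the AP-1 motif TGANTCA and the GC box GGGCGG. Matches of different motifs were counted separately and may share bases. The half-site was present in 9 of the member windows (11.8%, against 13.8% of all 35114 windows) and the TEAD motif in 7 (9.21%, against 14.03%). AP-1 matches were in 5 (6.58%, against 7.71%) and GC boxes in 40 (52.6%, against 45.0%). In the order given, these windows belonged to 7, 6, 5 and 22 genes. The median GC content was 61.0% in the member windows and 58.67% in all windows. A match is a description of letters, not evidence of binding. Shown are NCOA3, the first member per length in Yes WT, which has a single window, the NR1H3 window that holds a half-site, and the NR2F1 window at its upstream start, which holds no match. Capitals mark half-site, TEAD and AP-1 matches, on either strand.
NCOA3, chr20:47501637-47501936, plus strand: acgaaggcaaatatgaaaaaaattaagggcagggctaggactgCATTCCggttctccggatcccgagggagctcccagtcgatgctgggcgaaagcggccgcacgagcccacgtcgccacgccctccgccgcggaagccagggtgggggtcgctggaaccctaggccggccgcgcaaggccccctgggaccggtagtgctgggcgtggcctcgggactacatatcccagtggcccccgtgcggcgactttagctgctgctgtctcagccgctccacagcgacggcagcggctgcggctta
NR1H3, chr11:47248050-47248349, plus strand: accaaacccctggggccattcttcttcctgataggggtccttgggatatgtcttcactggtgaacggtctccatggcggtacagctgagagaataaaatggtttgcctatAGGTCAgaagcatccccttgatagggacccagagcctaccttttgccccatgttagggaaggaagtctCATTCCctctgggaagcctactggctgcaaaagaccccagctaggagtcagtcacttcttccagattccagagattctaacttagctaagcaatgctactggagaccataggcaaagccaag
NR2F1, chr5:93582972-93583271, plus strand: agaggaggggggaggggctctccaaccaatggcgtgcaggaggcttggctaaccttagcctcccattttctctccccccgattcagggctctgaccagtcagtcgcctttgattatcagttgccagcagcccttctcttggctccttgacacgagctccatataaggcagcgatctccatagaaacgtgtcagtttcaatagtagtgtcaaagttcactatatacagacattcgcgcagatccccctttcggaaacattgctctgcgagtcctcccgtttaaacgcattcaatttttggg

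Related genes outside the set, in lists likewise chosen with earlier results of these data known, gave a wider view of each ligand class. Of 18 other nuclear receptors 8 could be tested, and 5 fell (62.5%, against 27.3% of all tested genes) while the other 3 did not pass. Their median log2 fold change was -0.51. NR4A2 and NR4A1, orphan receptors that growth signals induce, fell, the first from 16.0 ± 1.32 to 7.13 ± 0.605 CPM and the second from 12.1 ± 0.383 to 7.20 ± 0.612 CPM (SD, n = 3 each). All 24 other coregulators were tested, and 8 rose and 5 fell (median -0.01), which against the background of 28.0% and 27.3% is no excess in either direction. The PGC-1-related coactivator PPRC1 rose (log2 ratio 0.51, SE 0.04, adjusted p = 1.63e-14). PNRC1, a small receptor coactivator, fell (log2 ratio -1.11, SE 0.05, adjusted p = 8.25e-23). With upper quartile factors or library size only, 9 of these coregulators fell rather than 5, and without Yes T348I replicate 1 the number was 3. Against a minimum change of 1.2-fold 3 rose and 1 fell.

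Genes that make, bind or break down the ligands fell at shares near that of all tested genes. Of 10 tested genes of retinoid supply and breakdown 3 fell and 1 rose (30% and 10%, against 27.3% and 28.0% of all tested genes), with a median log2 fold change of -0.12. RDH10, the enzyme that starts retinoic acid synthesis from retinol, fell from 149.4 ± 7.38 to 64.6 ± 4.92 CPM, a log2 ratio of -1.202 (SE 0.05, adjusted p = 9.75e-25). DHRS3, which runs the reverse step and is itself induced by retinoic acid, fell from 39.5 ± 0.742 to 19.9 ± 2.05 CPM, and the retinol carrier RBP4 from 2.60 ± 0.753 to 1.06 ± 0.346 CPM (SD, n = 3 each). The single rise was ALDH1A1, named after its values were seen, and it was not called without Yes T348I replicate 3, with upper quartile factors or with library size only. Of 13 tested genes that handle steroid, thyroid, vitamin D or sterol ligands 4 rose (30.8%) and 3 fell (23.1%), shares near the same background (median 0.02). FKBP4 and PTGES3, cochaperones of steroid receptors, rose (log2 ratio 0.41 with SE 0.04, and 0.34 with SE 0.03). CYP24A1, the enzyme that breaks down active vitamin D and the classical VDR target, fell from 377 ± 19.0 to 273.7 ± 17.8 CPM (log2 ratio -0.46, SE 0.04, adjusted p = 1.12e-13).

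Known targets of LXR and of the PPARs were mostly lower. Of 10 tested LXR targets 7 fell and the other 3 did not pass (70.0%, against 27.3% of all tested genes; median log2 fold change -0.53). SCD, a fatty acid desaturase, fell from 2666 ± 17.2 to 1904 ± 40.5 CPM, SREBF1, the lipogenic factor, from 94.6 ± 6.47 to 56.8 ± 7.74 CPM, and the lipoprotein gene APOE from 78.5 ± 1.91 to 48.1 ± 6.33 CPM (SD, n = 3 each). Of 13 tested PPAR targets 9 fell (69.2%, against 27.3% of all tested genes) and 2 rose (15.4%, against 28.0%), with a median of -0.36. PDK4, which restrains pyruvate oxidation, fell from 34.5 ± 0.615 to 12.8 ± 0.998 CPM, a log2 ratio of -1.42 (SE 0.07, adjusted p = 1.32e-20). PLIN2, a lipid droplet coat protein, fell too (log2 ratio -0.63, SE 0.03). Many of these targets answer to other regulators too, and whether the receptors contribute was not tested.

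Targets of the other receptors were mixed. Of 7 tested retinoic acid receptor targets 4 fell (57.1%, against 27.3% of all tested genes) and 3 did not pass, with a median log2 fold change of -0.16. Besides DHRS3 these included TGM2, a transglutaminase (-0.16, SE 0.05, adjusted p = 0.0066), and PLAAT4, which was under 1.2 CPM (-1.34, SE 0.36, adjusted p = 0.0014). Without Yes T348I replicate 2, or against a minimum change of 1.2-fold, the number that fell was 2, and without that library TGM2 had an adjusted p of 0.052. Of 14 tested glucocorticoid receptor targets 6 fell (42.9%, against 27.3% of all tested genes) and 4 rose (28.6%, against 28.0%), with a median of -0.16. Against a minimum change of 1.2-fold 4 fell and 1 rose. SGK1, a kinase of ion transport, rose from 81.9 ± 0.301 to 142.3 ± 4.05 CPM (SD, n = 3 each), while ERRFI1 and CEBPD fell (log2 ratio -0.50 with SE 0.03, and -0.84 with SE 0.06). Of 6 tested thyroid hormone and vitamin D receptor targets 4 fell (66.7%, against 27.3% of all tested genes) and 1 rose (16.7%, against 28.0%), with a median of -0.49. Besides CYP24A1, KLF9, a zinc finger factor that thyroid hormone and glucocorticoids induce, fell from 7.26 ± 0.206 to 3.56 ± 0.264 CPM, and THBD (thrombomodulin) rose from 2.18 ± 0.303 to 5.83 ± 0.614 CPM (SD, n = 3 each).

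ERR alpha and PGC-1 targets went the other way, with 7 of 11 tested higher and 1 lower (63.6% higher, against 28.0% of all tested genes; median log2 fold change 0.16). The changes were small, and with a minimum change of 1.2-fold required, 2 genes passed as higher and TFAM did not (adjusted p = 0.95). CYCS, which encodes cytochrome c, rose from 254.5 ± 4.27 to 380.5 ± 4.47 CPM, IDH3A, a subunit of a citric acid cycle enzyme, from 62.2 ± 1.96 to 84.5 ± 2.09 CPM, and the mitochondrial transcription factor TFAM from 96.6 ± 3.37 to 113.8 ± 3.34 CPM (SD, n = 3 each). The levels of ESRRA, PPARGC1A and PPARGC1B, given above, did not pass the test. The 1 lower gene was SIRT3, named after its values were seen. It was not called with DESeq2 or without Yes WT replicate 1, and 2 genes were lower with upper quartile factors or library size only. Of 11 FXR, PXR and CAR targets only 3 had enough counts, in cells where those receptors were at the floor. The drug efflux pump ABCB1 rose from 62.8 ± 0.405 to 78.2 ± 1.46 CPM (SD, n = 3 each) but did not pass that minimum (adjusted p = 0.15), while ALAS1 (adjusted p = 0.95) and UGT1A1 (adjusted p = 0.97), which shares exons with its gene family and is uncertain, did not pass. Of 5 tested estrogen receptor targets 3 fell and 1 rose in cells with no ESR1 counts. Over all tested genes 27.3% were lower and 28.0% higher, and with only 5 genes these counts describe the list alone. IGFBP4 and XBP1 fell (log2 ratio -0.62 with SE 0.04, and -0.20 with SE 0.04), and MYB rose (log2 ratio 0.82, SE 0.13). XBP1 was not called against the same minimum.

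**Figure D4:**
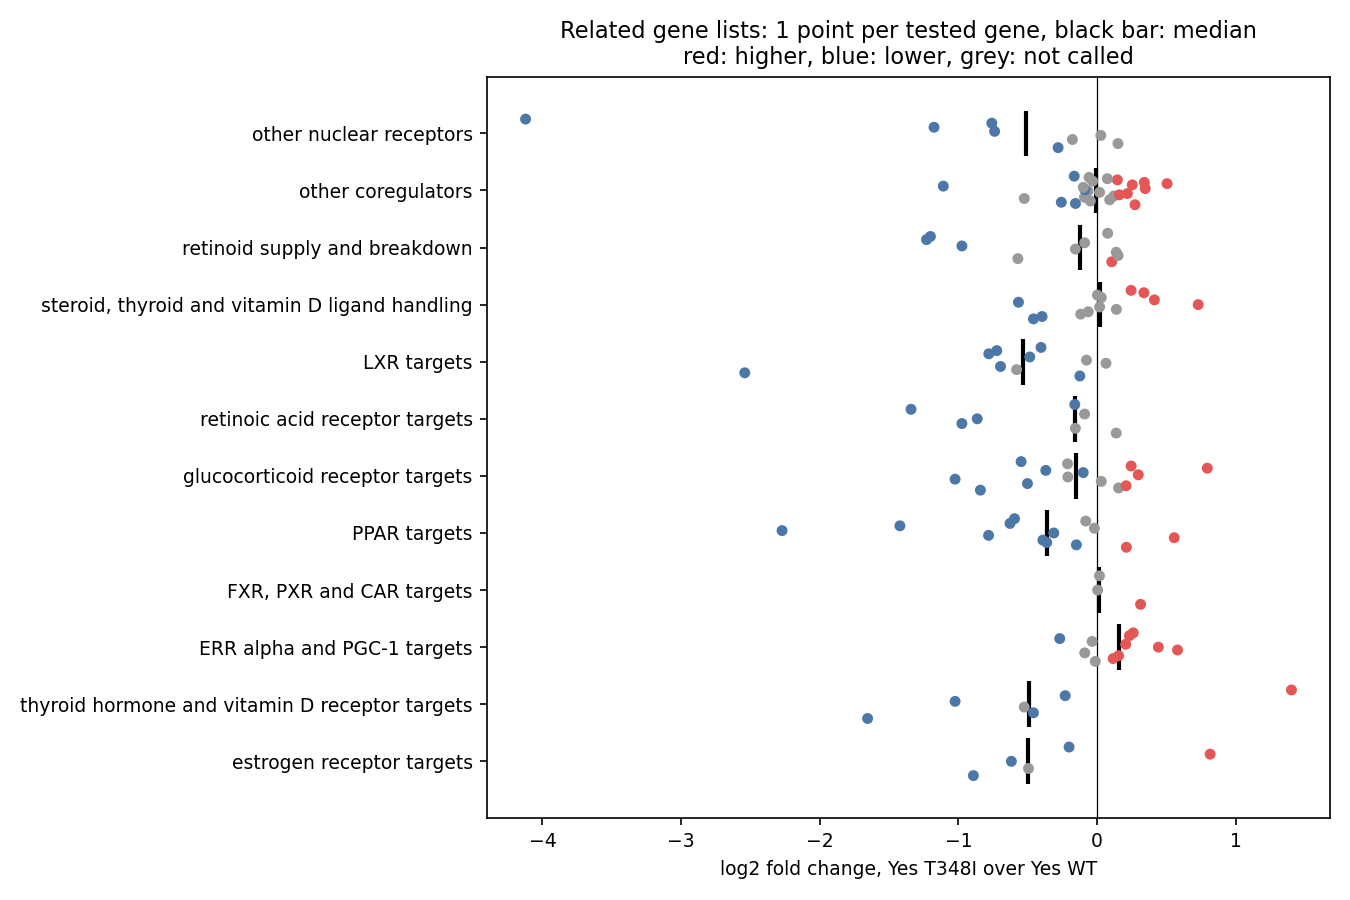
Log2 fold change of Yes T348I over Yes WT for each tested gene of the 12 related lists, with the median of each list as a black bar (red, higher; blue, lower; grey, not called). The LXR target median is -0.53, the PPAR target median -0.36 and the ERR alpha and PGC-1 target median 0.16.

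Leukocyte and endothelial markers were low in these cultures, while single stellate cell and cholangiocyte markers were well expressed. The 6 leukocyte markers summed to 0.208 to 0.489 CPM in the Yes WT libraries and 0.205 to 0.423 CPM in Yes T348I, with CD3E and CD163 at 0 counts, and the 4 endothelial markers summed to 1.14 to 1.53 CPM and 0.480 to 0.564 CPM. Of 5 fibroblast and stellate cell markers 2 were tested, and the sum of 133.5 to 146.5 CPM in the Yes WT libraries and 144.7 to 155.6 CPM in Yes T348I was almost all RGS5, while DCN was at 0 counts in Yes WT. The 5 cholangiocyte markers summed to 397 to 428 CPM in the Yes WT libraries and 712 to 799 CPM in Yes T348I, mainly KRT7 (309.9 and 603 CPM) and SOX9 (106 and 149.3 CPM), with EPCAM at no more than 11 counts and CFTR at no more than 1. Of 3 tested cholangiocyte markers 2 rose and 1 did not pass, and of 3 tested hepatocyte markers 2 fell and 1 did not pass. Over all tested genes 28.0% rose and 27.3% fell, and with only 3 genes each these counts describe the lists alone. Whether cell state has a part in the receptor differences was not tested.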

How the data were processed

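Polyadenylated RNA of 6 libraries was measured by stranded sequencing. The authors deposited unnormalized gene counts, each library in a file with unstranded, forward and reverse columns. Tools listed in the submitters' processing notes, with no role, are STAR 2.5.1b, Trimmomatic 0.35 and CASAVA 1.8.2, with the build GRCh38. No source used here gives the annotation release. The reverse column was used, since the forward column held 6.13% to 6.59% of its total. Reads on no feature made up 6.37% to 7.87% and reads fitting several genes 3.11% to 3.15%; both stayed out of library sizes and tests. Multimapping reads stand in a summary line of the deposited files and not in the gene counts. A name table gave symbols for 57392 of 58219 identifiers, and GENCODE release 29 gave positions and exon lengths for 57836.

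The test was edgeR 4.0.16 under R 4.3.3 (filterByExpr minimum count 10, TMM scaling, quasi-likelihood test with no covariate, Benjamini-Hochberg adjustment, threshold 0.05), which left 14723 genes. Standard errors were derived from the F statistic. The fit was also run on simulated data in which 67, 67 and 66 of 14531 genes changed 1.2-, 1.5- and 2-fold. It recovered 55.2%, 74.6% and 92.4% of them, with 10 false calls among 158. Far fewer genes changed there than were called in these data, so that run cannot show how the fit performs here. Alternatives were other scalings, no filter, DESeq2 1.42.0, limma 3.58.1 (voom), a minimum change of 1.2-fold, unstranded counts, a replicate block and leaving out each library. Members and lists were chosen with earlier results of these data known. All members are accounted for, and each related list has its 3 tested genes of lowest adjusted p named, except a few that are not reported here. Lists were given no set test. Exons of NR1I2, ESR1, NR2F2, NR2F6, RORA and NRIP1 overlap another gene on their strand in part, where reads go uncounted.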

Additional observations from a re-analysis of the deposited data

How the results depend on the processing

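Against a minimum change of 1.2-fold (glmTreat), 1 member was higher and 9 lower in place of 3 and 17, 12 related genes were higher and 30 lower, and for all genes called higher and all genes called lower the counts were 1394 and 1835. Under the other alternatives 2 to 3 members were higher and 16 to 21 lower. With 1 library left out, 2 to 3 were higher and 16 to 17 lower. Of 465 values of tested members under the alternatives, 420 kept direction and side of the threshold, 25 no longer passed, 11 newly passed and 9 changed sign. The sign changes, here and in related genes, were in genes that did not pass.

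The RARA log2 fold change was 0.02041 with no low-count filter and 0.03192 with unstranded counts, and ran from -0.03972 to 0.05612 with 1 library left out. Over the same omissions that of PPARGC1A ran from -0.1589 to 0.1317, PPARGC1B from -0.0639 to 0.1782, UGT1A1 from -0.1988 to 0.3200 and ALAS1 from -0.01209 to 0.0186. With library size only and with upper quartile factors UGT1A1 was at -0.01936 and -0.02291 and ALAS1 at -0.03309 and -0.03637. The cause was not tested.

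The replicate number as a block gave 3 members higher and 17 lower, and over all genes called higher and all genes called lower 4054 and 3936. Deviations of same-numbered libraries correlated at -0.028 to 0.0014, so no effect shared by number was visible. That cannot decide whether same-numbered libraries were handled together, which the labels do not state. RORA and PPARGC1A, with 9 to 16 counts per library, and the 7 untested members are limited by depth.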
